A study of Canis lupus familiaris with 10 samples.

Results

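The translation factors examined here are the 59 genes of the deposited table whose symbols start with EIF1, EIF2, EIF3, EIF4, EIF5, EIF6 or EEF, leaving out the kinases whose symbols start with EIF2AK. The rule uses the symbols only, out of 23266 in the table, and no measured value. QuantSeq 3′, which sequences the polyadenylated ends of mRNAs, was run on archived FFPE blocks (formalin-fixed, paraffin-embedded) of canine cutaneous histiocytoma (CCH), a benign tumor of Langerhans cell origin in the skin of dogs that usually regresses on its own. The libraries came from 5 early tumors (histological group 1) and 5 late tumors (histological group 3, labeled as lymphocyte enriched) of dogs of various breeds, without any treatment named in the labels. The early dogs were 0.5 to 5 years old where an age was given (n = 4), and the late dogs 1.5 to 9 years (n = 5). Each library is bulk tumor tissue trimmed of adjacent tissue, so that fewer cells of a type and less RNA per cell cannot be told apart. The libraries held between 2973125 and 4439709 reads assigned to genes. All values are normalized read counts, that is, reads divided by the size factor of the library.

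Protein synthesis starts when initiation factors bring the small ribosomal subunit with the initiator tRNA to the capped end of an mRNA. The factor eIF2 carries the initiator tRNA and is recharged by eIF2B, eIF3 is the large scaffold on the small subunit, and the eIF4 factors bind the cap and unwind the leader. EIF1, EIF1AX, EIF5 and EIF5B act in the choice of the start codon and in the joining of the large subunit. Elongation then depends on eEF1, which delivers aminoacyl-tRNA, and on eEF2, which moves the ribosome along. Many mRNAs of elongation factors and ribosomal proteins carry a pyrimidine-rich start, through which growth signals control their translation.

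The share of these genes in all reads was small, and its ranges overlapped between the stages. They took 1.16%, 0.845%, 1.21%, 1.16% and 1.01% of the reads in early libraries 1 to 5, and 0.978%, 1.05%, 1.17%, 1.09% and 1.04% in late libraries 1 to 5. The mean was 1.08% ± 0.15 in early and 1.06% ± 0.0717 in late CCH (SD, n = 5 each), a difference of -0.0129 percentage points that was smaller than the spread of the libraries. Early library 2 had the lowest share of all 10 libraries, and early library 3 had the highest. Counting error was far smaller than this spread, with a 95% Wilson interval of 0.835% to 0.854% for early library 2.

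QuantSeq 3′ yields 1 fragment near the polyadenylated end of a transcript, and therefore normalized read counts were not divided by gene length. On this scale the median level of the 58 members with enough reads was 326, against 89.2 over all genes tested, and 20 members were among the 1000 most abundant genes. The highest mean over all libraries was that of EEF1B2 with 6117 (rank 49 among all genes), followed by EEF2 with 2830, EIF1 with 1832, EEF1D with 1745 and EIF4G2 with 1615. The lowest levels among the genes tested were those of EEF1AKMT3 with 14.3, EIF4ENIF1 with 16.4 and EEFSEC with 16.5. EEF1A1, usually one of the most abundant mRNAs of a cell, ranked only 386th with 1117. This gene has many processed copies in mammalian genomes, so that its reads can map to several places and its level is uncertain here. Whether this bears on its rank was not tested. EIF4E1B, a paralog of EIF4E known from oocytes, had between 0 and 5 reads in every library and was not tested. The deposited data hold no gene under the symbols EEF1A2 and EIF3C, so that these were not analysed here.

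The comparison of late with early CCH asked which of these genes changed with the stage. By the thresholds of the study (Benjamini-Yekutieli (BY) adjusted p of at most 0.05 and an absolute log2FC of 1 or more), 0 of the 58 members were called by limma, against 2.17% of the 12397 genes tested. At an unadjusted p of at most 0.05 there were 18 members (31.0%), against 30.9% of all genes. With the same thresholds edgeR called 0 members (1.43% of all genes), and DESeq2 called 1, EIF2S3, lower in late CCH (6.53% of all genes). The study set its fold threshold on log2FC values with shrinkage, and no shrinkage was used here. EIF2S3 was close to the threshold, with a log2FC of -1.05 in DESeq2. The lowest BY-adjusted p of a member in limma was 0.136, for EIF4E. Since members changed little in size, the Benjamini-Hochberg (BH) adjusted p of at most 0.05 without a fold threshold was used for the single genes below.

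By this rule 3 members rose (5.17%, against 7.92% of all genes) and 6 fell (10.3%, against 7.69%). EIF5, EIF5B and EIF4G3 were higher in late CCH, and EIF4E, EEF2K, EIF2S3, EIF3E, EEF1A1 and EEF2KMT were lower. The 9 genes make up 15.5% of the members, and the share over all genes tested was 15.6%, so that their number is that of the background. With column total scaling 4 rose (10.3% of all genes) and 3 fell (5.74% of all genes), since EIF4E3 then passed and EIF3E, EEF1A1 and EEF2KMT did not. The median log2FC of the members was -0.09, against -0.004 over all genes, and 41 of 58 had a log2FC below 0 (70.7%, against 50.2% of all genes). With column total scaling, which turned the sign of 12 members, the median of the members was -0.0014, against 0.085 over all genes. Of all genes that passed the BH rule 50.7% were higher in late CCH, and 64.2% with column total scaling. The changes of the members were smaller than those of all genes, with a median size of 0.23 on the log2 scale against 0.41. The SE of the members had a median of 0.20 against 0.29. The members also had a higher median level (326 against 89.2), and the genes were not matched by level. Only 4 members (6.90%) had a log2FC of at least 1 in size, against 15.9% of all genes. For 41 of the 49 members that did not pass, the 95% interval of the log2FC lay within -1 and 1, that is, below a 2-fold change in either direction.

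**Figure D1:**
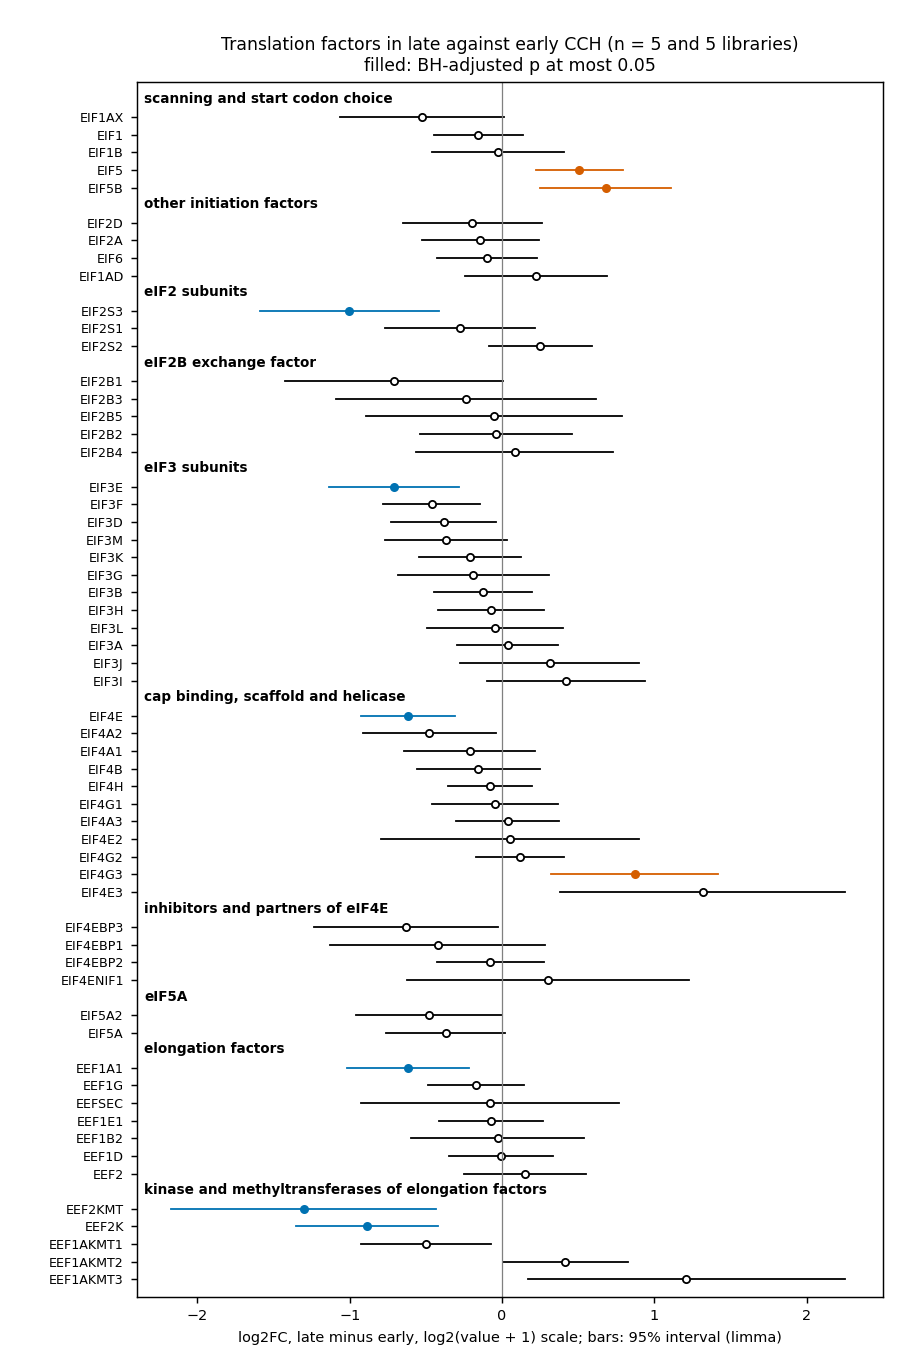
Log2FC of the 58 members tested (x axis, late minus early, from log2(value + 1)) with 95% intervals from limma, one line per gene, grouped by role. Filled symbols mark the 9 genes with a BH-adjusted p of at most 0.05, of which 6 lie left of 0 and 3 right of it, while most open symbols lie close to 0.

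Among the 5 factors of scanning and start codon choice, 2 rose and 3 did not pass. EIF5 makes eIF2 hydrolyze its GTP once the start codon is found. Its normalized read count was 494, 478, 532, 655 and 561 in early libraries 1 to 5 and 689, 796, 698, 859 and 815 in late libraries 1 to 5. Each late library lay above each early library, and EIF5 was the only member (1.72%) with this pattern, against 5.91% of all genes. The log2FC was 0.51 ± 0.13 (SE), a 1.42-fold increase (95% interval 1.17 to 1.73, BH-adjusted p = 0.0230), and it passed in 7 of the 10 leave-one-out fits (not without early library 1, late library 2 or late library 4). EIF5B, the GTPase that joins the large ribosomal subunit, had 646, 402, 579, 726 and 395 in early and 630, 974, 895, 872 and 959 in late CCH. Late library 1 overlapped with the early libraries, and the other 4 late libraries lay above all of them (log2FC 0.68 ± 0.20, BH-adjusted p = 0.0364). It passed in 3 of these 10 fits (without early library 1, early library 4 or late library 1). EIF1, which keeps the scanning ribosome open, was the most abundant gene of this group with 1928 ± 193 in early and 1737 ± 221 in late CCH (SD, n = 5 each, log2FC -0.16, 95% interval -0.45 to 0.14). Its paralog EIF1B had 96.8 ± 7.37 and 97.2 ± 26.2. EIF1AX, a scanning factor, had the lowest log2FC of the group with -0.53 (95% interval -1.07 to 0.01).

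The 3 subunits of eIF2 did not share a pattern. EIF2S3 encodes the gamma subunit, which binds GTP and the initiator tRNA. It had 354, 368, 530, 228 and 618 in early libraries and 212, 248, 183, 126 and 248 in late libraries. The early libraries were widely spread, and early library 4 fell within the late range. It fell 2.00-fold (95% interval of the late level 0.332 to 0.751 of the early level, BH-adjusted p = 0.0274), which passed in 7 of the 10 leave-one-out fits (not without early library 3, early library 5 or late library 4). EIF2S1, the alpha subunit that stress kinases phosphorylate, went from 206 ± 42.4 to 172 ± 49.6 (log2FC -0.28, 95% interval -0.77 to 0.22). EIF2S2, the beta subunit and the most abundant of them, went from 734 ± 149 to 861 ± 71.2 (log2FC 0.25, 95% interval -0.09 to 0.59). None of the 5 subunits of the exchange factor eIF2B passed the test. Their log2FC ranged from -0.71 for EIF2B1 (BH-adjusted p = 0.165) to 0.08 for EIF2B4, with EIF2B2, EIF2B3 and EIF2B5 at -0.04, -0.23 and -0.05. These genes had mean levels between 49.3 and 93.7, and their intervals were wide, for instance -1.09 to 0.62 for EIF2B3.

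Of the 12 subunits of eIF3, EIF3E fell and the other 11 did not pass the test. EIF3E had 1309, 884, 1242, 855 and 1383 in early and 537, 544, 920, 784 and 690 in late CCH. Late library 3 lay above the lowest early libraries, and the other 4 late libraries lay below every early library. The log2FC was -0.71 ± 0.20 (SE), a 1.63-fold fall (BH-adjusted p = 0.0304). It passed in 4 of the 10 leave-one-out fits (early library 2, early library 4, late library 3 or late library 4). EIF3F lay just beyond the threshold, with 994 ± 130 in early and 724 ± 118 in late CCH (log2FC -0.46 ± 0.15, BH-adjusted p = 0.0516). It passed in 4 of 10 other settings (TMM scaling, DESeq2, library weights and a mean of at least 50, with BH-adjusted p from 0.0285 to 0.0442) and in 2 of the 10 leave-one-out fits (early library 2 or late library 3). EIF3D also passed without early library 2 (BH-adjusted p = 0.0339). EIF3D, EIF3M and EIF3K followed with log2FC values of -0.38, -0.37 and -0.21, and EIF3K was the most abundant subunit with 1529 ± 282 and 1313 ± 166. Close to 0 lay EIF3G (-0.19), EIF3B (-0.12), EIF3H (-0.07), EIF3L (-0.05) and EIF3A (0.04), the largest subunit, for which the 95% interval was -0.30 to 0.37. EIF3I and EIF3J had the highest log2FC values of the complex with 0.42 and 0.31 (BH-adjusted p = 0.260 and 0.470). The median over the 12 subunits was -0.16.

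Among the 11 tested genes of cap binding, scaffolding and unwinding, 1 fell, 1 rose and 9 did not pass. EIF4E is the protein that holds the cap, and its amount limits the translation of many growth-related mRNAs. It had 419, 436, 458, 393 and 405 in early and 270, 223, 267, 273 and 353 in late CCH. All late libraries lay below all early libraries, and EIF4E was the only member (1.72%) for which this was so, against 6.05% of all genes. With column total scaling the stages of EIF4E overlapped. The log2FC was -0.62 ± 0.14 (SE), a 1.54-fold fall (95% interval of the late level 0.526 to 0.807 of the early level, BH-adjusted p = 0.0136), and it passed in all 10 leave-one-out fits. The early libraries were close to each other, with an SD of 25.6 around a mean of 422, and the late mean was 277 ± 46.9.

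EIF4G3 encodes a paralog of the scaffold EIF4G1. It had 348, 235, 318, 184 and 215 in early and 307, 518, 402, 790 and 422 in late CCH. Late library 1 lay within the early range, the other 4 lay above it, and late library 4 was far higher than the rest. The log2FC was 0.87 ± 0.25 (SE), a 1.83-fold increase with a BH-adjusted p of 0.0359, which was lost in 6 of the 10 leave-one-out fits (early library 2, 4 or 5, or late library 2, 4 or 5). EIF4G1 itself had 350 ± 86.3 and 330 ± 34.0 (log2FC -0.05, 95% interval -0.46 to 0.37). EIF4G2, a scaffold without a cap-binding partner, was the most abundant gene of this group with 1554 ± 214 and 1676 ± 134 (log2FC 0.12). The helicases EIF4A1 and EIF4A2 had log2FC values of -0.21 and -0.48 (BH-adjusted p = 0.507 and 0.126). Their helper proteins EIF4B and EIF4H lay at -0.16 and -0.08, and EIF4A3, a helicase of the exon junction complex, at 0.04.

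The other cap-binding paralogs differed from EIF4E. EIF4E3 had the highest log2FC of all members with 1.32 ± 0.43 (SE), and it missed the threshold (BH-adjusted p = 0.0567). It passed with column total scaling (BH-adjusted p = 0.0449), with library weights (0.0373), without early library 2 (0.0246) and without early library 3 (0.0359). Its normalized read count was 23.8, 93, 85, 44.1 and 18.3 in early and 99.4, 87.5, 80.4, 152 and 150 in late CCH. The early libraries split widely, and early libraries 2 and 3 lay within the late range. EIF4E2, which represses rather than starts translation, had 22.1 ± 6.93 and 23.7 ± 8.93 (log2FC 0.05, 95% interval -0.79 to 0.90).

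None of the 4 inhibitors and partners of eIF4E passed the test. EIF4EBP1, EIF4EBP2 and EIF4EBP3 are the binding proteins that block eIF4E until the kinase mTOR phosphorylates them. EIF4EBP2 was the most abundant of them, with 372 ± 67.3 in early and 352 ± 50.1 in late CCH (log2FC -0.08, 95% interval -0.43 to 0.28). EIF4EBP3 had the lowest log2FC with -0.63 ± 0.28 (BH-adjusted p = 0.142), and EIF4EBP1 had -0.42 ± 0.32 (BH-adjusted p = 0.410). EIF4ENIF1, which carries eIF4E into the nucleus, had 14.4 ± 5.11 and 18.5 ± 7.86 (log2FC 0.30).

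**Figure D2:**
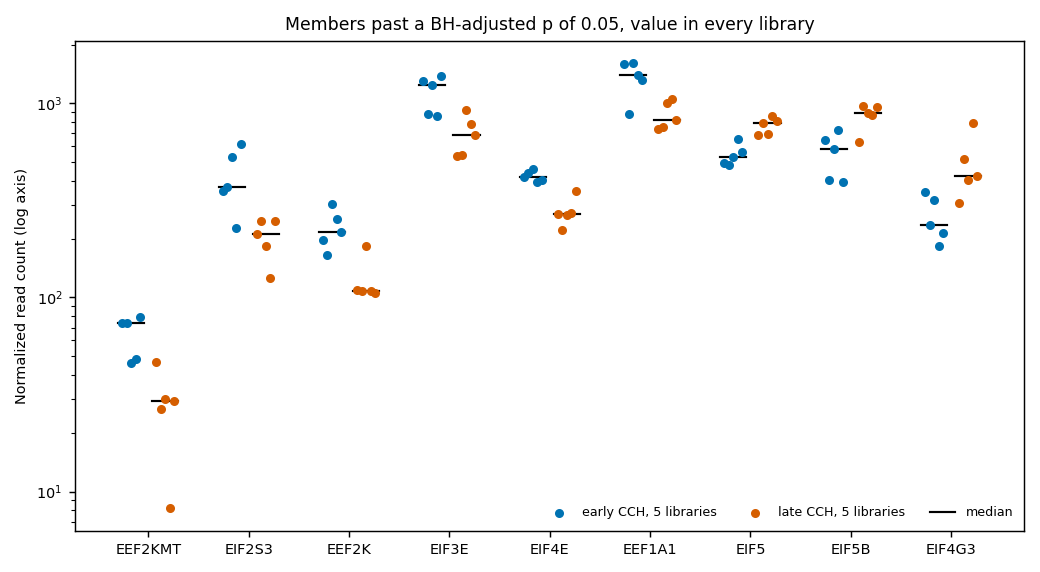
Normalized read count (log axis) of the 9 members with a BH-adjusted p of at most 0.05 in each of the 5 early (blue) and 5 late (orange) libraries, with the median of each stage as a bar. The points of the stages are fully apart for EIF4E and EIF5, and they overlap in at least 1 library for the other 7 genes.

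None of the 4 other initiation factors and of the 2 eIF5A genes passed the test. EIF6, which keeps the large ribosomal subunit from joining too early, had 367 ± 49.3 in early and 344 ± 53.5 in late CCH (log2FC -0.10, 95% interval -0.42 to 0.23). EIF2A and EIF2D, which can deliver tRNA without eIF2, lay at -0.14 and -0.19, and EIF1AD at 0.23. EIF5A, the hypusine-carrying factor that helps the ribosome over difficult peptide bonds, had 1441 ± 197 and 1131 ± 256 (log2FC -0.37 ± 0.18, BH-adjusted p = 0.182). Its paralog EIF5A2 had a much lower level, with 85.7 ± 15.6 and 61.6 ± 13.1 (log2FC -0.48 ± 0.22, BH-adjusted p = 0.160).

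Of the 7 elongation factors, EEF1A1 fell and 6 did not pass. EEF1A1 delivers aminoacyl-tRNA to the ribosome. It had 1590, 877, 1613, 1396 and 1319 in early and 736, 754, 1009, 1055 and 820 in late CCH. Early library 2 lay within the late range, and the other early libraries lay above every late library. The log2FC was -0.62 ± 0.18 (SE, BH-adjusted p = 0.0399), and it passed in 3 of the 10 leave-one-out fits (early library 2, late library 3 or late library 4). The exchange factor subunits EEF1B2, EEF1D and EEF1G, which recharge it, had log2FC values of -0.03, -0.01 and -0.17. EEF1B2 was very uneven in early CCH, from 3296 in early library 2 to 9902 in early library 4, and ranged from 5002 to 7888 in late CCH. EEF2 had 3162, 1783, 3043, 3089 and 2423 in early and 2402, 2849, 3457, 3427 and 2662 in late CCH, with overlapping stages (log2FC 0.15, 95% interval -0.25 to 0.55). EEF1E1, a part of the tRNA synthetase complex, and EEFSEC, the factor for selenocysteine, both had a log2FC near 0 (-0.07 and -0.08).

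Of the 5 enzymes that modify elongation factors, EEF2K and EEF2KMT fell and 3 did not pass. EEF2K is the kinase that inhibits eEF2. It had 198, 165, 304, 252 and 217 in early and 109, 108, 185, 107 and 105 in late CCH. Late library 3 lay within the early range, and the other 4 late libraries lay close together below it. The log2FC was -0.89 ± 0.21 (SE), a 1.85-fold fall (BH-adjusted p = 0.0171), and it passed in all 10 leave-one-out fits. EEF2KMT, a methyltransferase of eEF2, had 74.3, 73.5, 46.1, 48.0 and 79.4 in early and 46.7, 26.6, 30.0, 8.18 and 29.4 in late CCH. Only late library 1 overlapped with early CCH, and late library 4 was the lowest. The log2FC was -1.30 ± 0.40 (SE, BH-adjusted p = 0.0448), and it passed in 2 of the 10 leave-one-out fits (early library 4 or late library 1), and edgeR did not pass it. The methyltransferases of eEF1A did not pass, with log2FC values of -0.50 for EEF1AKMT1, 0.42 for EEF1AKMT2 and 1.21 for EEF1AKMT3. EEF1AKMT3 had only 7.98 ± 3.12 in early and 20.7 ± 10.2 in late CCH (BH-adjusted p = 0.106, and 0.0458 with DESeq2).

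Ratios of paralogs and partners within a library do not depend on the scaling between libraries. Of 6 ratios, 3 differed between the stages in an exact two-sided permutation test with BH adjustment over the 6. EEF2K to EEF2 was 0.0626, 0.0924, 0.0999, 0.0816 and 0.0895 in early and 0.0455, 0.0381, 0.0535, 0.0313 and 0.0394 in late CCH. All late libraries lay below all early libraries, with a log2 difference of -1.04 (exact p = 0.00794, the smallest this test can give, adjusted p = 0.0238). EIF4EBP2 to EIF4E was 0.795, 0.661, 1.02, 0.994 and 0.944 in early and 1.43, 1.66, 1.09, 1.12 and 1.14 in late CCH, so that the binding protein had more reads than its target in every late library and in early library 3. All late libraries lay above all early libraries (log2 difference 0.54, exact p = 0.00794, adjusted p = 0.0238). EIF4G3 to EIF4G1 was below 1 in all early libraries, from 0.567 to 0.924, and above 1 in 4 of 5 late libraries, from 0.912 to 2.45 (log2 difference 0.92, exact p = 0.0159, adjusted p = 0.0317). When 1 library was left out, this adjusted exact p rose to 0.0635 in 8 of 10 cases (all but early library 3 and late library 1). With 1 library fewer, the exact test has fewer splits and a larger smallest p. Any overlap of the stages then kept this adjusted p above 0.05. Only leaving out early library 3 or late library 1 ended the overlap. The log2 difference ran from 0.72 to 0.98 in the 8 cases. EEF2K, EIF4E and EIF4G3 had passed the test as single genes, and their ratios rest on the same values. The ratios EIF4A2 to EIF4A1, EIF1B to EIF1 and EIF4EBP1 to EIF4E had log2 differences of -0.27, 0.13 and 0.20 (adjusted exact p = 0.571, 0.571 and 0.611).

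**Figure D3:**
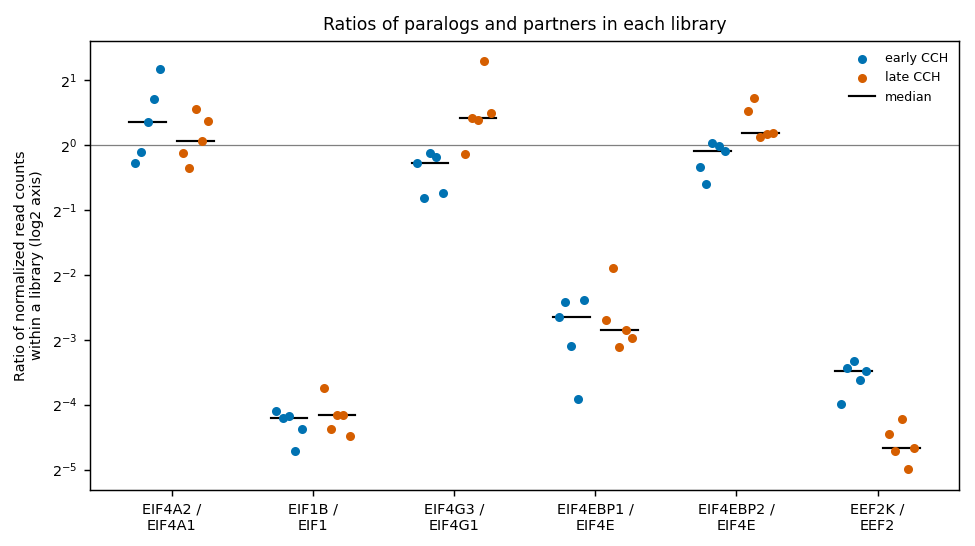
Ratio of the normalized read counts of 2 genes within each library (log2 axis) for 6 pairs, with early libraries in blue, late libraries in orange and medians as bars. EEF2K / EEF2 and EIF4EBP2 / EIF4E have fully separate stages, and late library 1 is the only late library with EIF4G3 / EIF4G1 below 1.

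Libraries of 1 stage differed from each other by more than the stages did. After centering each gene on its mean log2 value, the median over the members was 0.18, -0.21, 0.22, 0.11 and 0.01 in early libraries 1 to 5 and -0.18, -0.02, 0.06, -0.03 and -0.04 in late libraries 1 to 5. Early library 2 was the lowest of all 10 libraries and early library 3 the highest. EEF1B2, EEF2, EEF1D, EEF1G, EIF4B and EIF3J each had their lowest early value in early library 2.

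**Figure D4:**
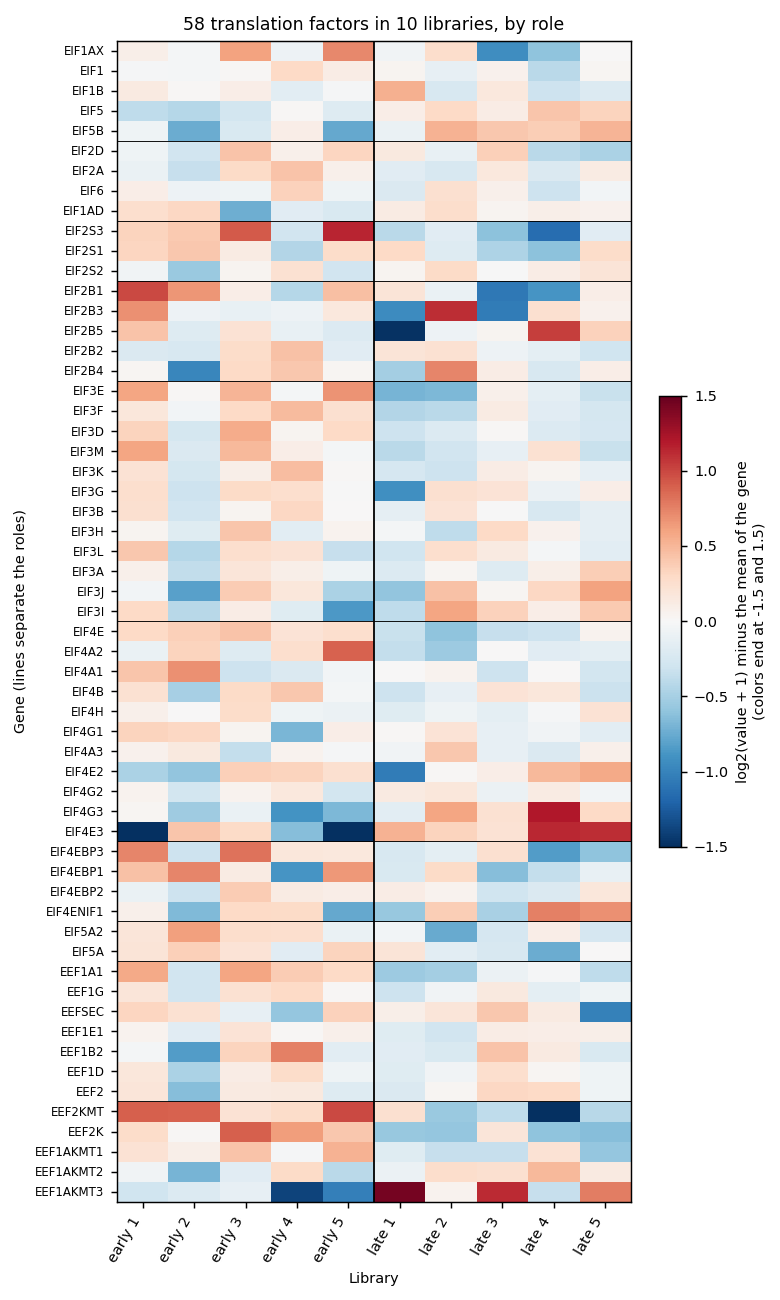
Gene-centered log2(value + 1) (colors) for the 58 members tested (rows, in order of role) in the 5 early and 5 late libraries (columns). Most elongation factors and many eIF3 subunits are low in early library 2. In late library 1, EIF2B5 (18.9), EIF2B3 (22.9) and EIF2B4 (62.6) lie below the mean of the gene. EIF2B1 (83.5) and EIF2B2 (59.7) lie above it there.

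Other genes of the same pathway were taken from lists by function. The 10 kinases, phosphatase subunits and partners that set the phosphorylation of eIF2 alpha included 0 genes past the BH rule in either direction in limma (unadjusted p of at most 0.05 for PPP1CB and PPP1R15A), with a median log2FC of 0.21. PPP1R15A, which guides the phosphatase to eIF2, had the highest log2FC with 1.00 ± 0.33 (BH-adjusted p = 0.0611), and PPP1CB, a catalytic subunit, the lowest with -0.79 ± 0.28 (BH-adjusted p = 0.0693). Of 13 tested targets of the integrated stress response, 1 rose and 0 fell, and of 23 further translation factors and regulators, 2 rose and 0 fell. With 7.92% of all genes higher, these counts are near the background. The stress response gene was ATF4, the central transcription factor of that response, which went from 955 ± 104 to 1326 ± 186 (log2FC 0.47 ± 0.14, BH-adjusted p = 0.0389). ATF3 and SESN2 marked the ends of this list with log2FC values of 0.74 and -0.47, and neither passed. The further factors had a median log2FC of -0.09. GSPT2, a paralog of the release factor GSPT1, went from 27.6 ± 15.5 to 88.9 ± 18.0 (log2FC 1.77 ± 0.33, BH-adjusted p = 0.00556). LARP1, which binds mRNAs with a pyrimidine-rich start, was the other (log2FC 0.56 ± 0.11). PABPC4, a poly(A)-binding protein, had the lowest log2FC with -0.68 ± 0.31 (BH-adjusted p = 0.164).

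The cytosolic ribosomal protein genes (symbols RPL or RPS with a digit, RPLP0 to RPLP2 and RPSA, a rule that also takes in some related genes and second loci) were set beside the factors without a test of the difference. Of 84 tested, 36 fell (42.9%, against 7.69% of all genes) and 0 rose, while at a BY-adjusted p with the fold threshold limma called 0 of them. Their median log2FC was -0.52, and 79 of 84 had a log2FC below 0. They took 14.8% ± 2.21 of all reads in early and 10.8% ± 1.59 in late CCH (SD, n = 5 each). Late library 3, with 13.5%, lay within the early range of 11.3% to 17.2%, and the other 4 late libraries lay below it, between 9.73% and 10.8%. RPL37 had the lowest log2FC with -1.37 ± 0.45 (BH-adjusted p = 0.0575), and RPS19BP1, a binding partner of a ribosomal protein, had the highest with 0.33 ± 0.16 (BH-adjusted p = 0.171). The number of ribosomal protein genes that fell was 25 with column total scaling (5.74% of all genes) and 19 without a filter on low values (3.47% of all genes). When 1 library was left out, it lay between 19 (without early library 5 or late library 2) and 53 (without early library 2). Over all genes tested in these fits, the share that fell ran from 4.66% to 7.65%.

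**Figure D5:**
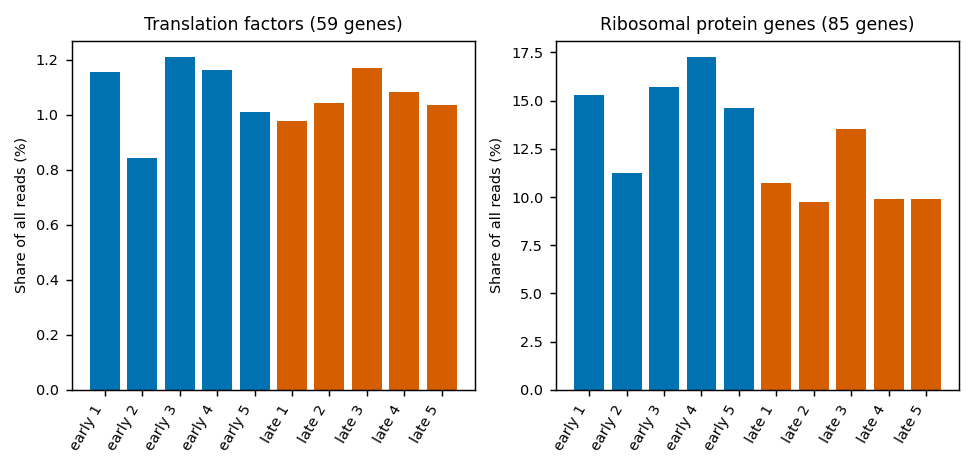
Share of all assigned reads (y axes in percent, starting at 0) taken by the 59 translation factors (left) and by the 85 ribosomal protein genes (right) in each library, early in blue and late in orange. The factors stay between 0.845% and 1.21% in both stages, and the ribosomal proteins are below 11% in 4 of 5 late libraries.

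Some marker genes of other cell types differed between the stages as well. By the BH rule, 7.92% of all genes were higher in late CCH and 7.69% were lower. Of 14 T-cell genes, 13 were higher in late CCH at a BH-adjusted p of at most 0.05, and their summed normalized read counts ran from 370 to 3241 in early and from 5194 to 7557 in late CCH, with 0 genes of the list lacking reads throughout. Of the B-cell list 3 of 7 tested genes and of the macrophage list 2 of 8 were higher, and 0 were lower. The macrophage sum ran from 2425 to 11186 in early and from 6072 to 11735 in late CCH, and its early maximum was in early library 2. The keratinocyte list, with 1 of 12 tested genes lower, summed to between 1088 and 19040 in early and between 796 and 9938 in late CCH. Of the proliferation list 0 of 15 genes passed BH in limma (unadjusted p of at most 0.05 for TOP2A and TYMS, median log2FC -0.30). The Langerhans and dendritic cell list had 2 of 8 tested genes higher (CCR7 with a log2FC of 2.38 and CD83 with 1.09) and 3 lower (CD1A8 with -3.80, FLT3 with -2.89 and FCER1A with -2.47). FLT3 and FCER1A were also called by the thresholds of the study (BY-adjusted p = 0.0434 and 0.0401). CD1A8, a defining marker, ranged from 42.8 to 316 in early and from 0 to 35.8 in late CCH, where late library 4 had no read of it (a count of 0 allows up to 3.07). Another gene of the list, ITGAX, had reads in all libraries, with values from 271 to 1192. ITGAX, CDH1 and LAMP3 did not pass, with log2FC values of -0.13, -0.74 and 1.31. RNA quality, given by the labels as the share of long fragments (DV200), was 64.5% to 71.2% in early and 71.2% to 75.8% in late samples. The part of these differences in the results on translation factors was not tested. The sample list of the study gives the early and the late samples different RNA extraction batches, with none in common, so that extraction batch and stage cannot be told apart.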

How the data were processed

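QuantSeq 3′ libraries of 10 FFPE CCH samples were analyzed. According to the methods of the study and the labels, reads were trimmed with Cutadapt, aligned with STAR to CanFam3.1 and counted per gene with featureCounts in 2 rounds, and reads with several mapping places were kept and distributed evenly (versions not given in the sources used here). The deposited signal is a normalized read count, that is, reads divided by 1 size factor per library by the authors. All values above 0 were whole multiples of 1 read (100% within a relative tolerance of 1e-06), and these reads entered edgeR and DESeq2. How reads with several mapping places came to be whole counts is not given in the sources used here. The table has 11 further columns of values that match no sample and were not used. Column names give the stage but not the sample, so libraries are numbered only to name them.

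A gene needed a value of 10 or more in 5 or more libraries to enter the test, which was done with limma 3.58.1 (mean-variance trend, log2(value + 1), no covariates) in R 4.3.3, with edgeR 4.0.16 (177 genes called on the reads) and DESeq2 1.42.0 as alternatives. Further alternatives were other scalings, pseudocounts, filters, library weights and leaving out 1 library. Log2FC values are late minus early and understate changes of low genes. P-values of genes were adjusted over all genes tested in the fit, 12397 in the main setting. In the other settings this number ran from 8407 (mean of at least 50) to 22072 (no filter). Ratios were tested with scipy 1.17.1. A count of 0 allows up to 3 reads, a normalized read count of 2.36 to 3.22, and intervals of shares cover counting error only. The fits were tested on simulated data. The gene family, its symbol rule and the lists were chosen with earlier results of these data known, although the rule itself uses no measured value. The genes named were those past BH, those whose stages do not overlap, the highest and lowest log2FC and the most abundant gene of each role, and the genes of the ratios. LARP1, ATF4, ITGAX and other members named for completeness were chosen after their values were seen. P-values measure the spread between these samples, each of a different dog as far as the labels tell.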

Additional observations from a re-analysis of the deposited data

Results flagged for a closer look

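In 132 groups of 5 libraries (the 59 members, the share of reads and the 6 ratios, each in early and late CCH), 2 had an extreme library whose gap to its neighbor, divided by the range, passed 0.71 (Dixon's critical value). About 6.6 such groups would come up by chance. EEF2K was 185 in late library 3, and the next late library had 109 (relative gap 0.944). Late library 3 was also the late library with the highest share of ribosomal protein reads (13.5%). EIF2B3 was 73.3 in early library 1, and the next early library had 50.5 (relative gap 0.721). What lies behind these values was not tested.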

How the results depend on the processing

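In limma, 0 members passed BY with the fold threshold in all 10 leave-one-out fits. DESeq2 called 1 member (EIF2S3, lower, 1.72% of the members), against 6.53% of all genes. With BH in place of BY and the same fold threshold, limma called 2 members lower (EEF2KMT and EIF2S3). The share over all genes by that rule is not given here, so that this number cannot be set against the background. The number past BH that rose ran from 0 to 3 in fits that left out 1 library (0 without late library 2 or late library 4, 1 without early library 5 or late library 5), and the number that fell from 2 to 7 (2 without early library 3 or early library 5, 3 without early library 1, late library 2 or late library 5). Over all genes tested in these fits, the share that rose ran from 4.35% to 8.74% and the share that fell from 4.66% to 7.65%. With column total scaling 3 fell, without EEF1A1, EEF2KMT and EIF3E. By this scaling 0 members lay fully lower in late CCH, against 4.45% of all genes (6.05% in the main setting). The members that lay fully higher ran from 1 to 3 without 1 library (3 without late library 1, 2 without late library 4), and those fully lower from 1 to 5 (5 without early library 2, 4 without late library 3). Leaving out a library raises such counts by construction, and over all genes tested the shares were 6.32% to 8.48% and 6.68% to 8.50%. EEF2K and EIF4E passed BH in each of these 10 fits and under each of 10 other settings, and the direction of the 9 genes past BH was the same in all of them. Without a filter on low values, 6 of the 9 passed. Of all 22072 genes then tested, 7.38% passed, against 15.6% in the main setting. The log2 difference of EIF4G3 to EIF4G1 ran from 0.72 to 1.07 in the leave-one-out fits, and from 0.72 to 0.98 in those in which it lost its call. That of EIF4EBP1 to EIF4E ran from -0.052 to 0.32, and it was below 0 without early library 4 (-0.052) and without late library 2 (-0.0026). The cause of these changes in the log2 differences was not tested. No paired analysis was possible because no replicate number in the columns ties them to single samples, and the samples of the stages came from different dogs. EEFSEC, with 17.1 reads per library, had a 95% interval of -0.93 to 0.77 on the log2 scale, and EIF2B3, with 51.5, had -1.09 to 0.62. Changes within these limits are compatible with the values of these libraries. The part of depth in the width of the intervals was not tested.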

Other observations

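LARP1, a gene of the list of further translation factors that was singled out after its values were seen, rose with little spread within each stage. Its normalized read count was 1166, 1014, 1140, 1251 and 1192 in early and 1768, 1666, 1708, 1666 and 1677 in late CCH. All late libraries lay above all early libraries, and the late SD of 43.4 was small against the distance of the means, 1153 and 1697 (log2FC 0.56 ± 0.11 (SE), BH-adjusted p from limma 0.00703). GSPT2 also had fully separate stages, with values from 16.2 to 53.4 in early and from 63.7 to 110 in late CCH.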
